A study of Homo sapiens with 4 samples.

Results

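Keratins are the intermediate filament proteins of epithelial cells. They assemble only in pairs of an acidic type I and a basic type II chain, so that KRT18, a type I keratin, has KRT8, a type II keratin, as its usual partner in simple epithelia such as the lining of the gut. The intestine adds the type I keratins KRT19 and KRT20, and KRT20 marks the more differentiated cells of the colonic lining and is used in pathology to trace tumors to the colon. The filaments are tied to the cell border through desmosomes and through plakin proteins.

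The epithelial keratin genes described here are KRT7, KRT8, KRT10, KRT17, KRT18, KRT19, KRT20, KRT23 and KRT80, 9 genes in all, of which 6 encode type I and 3 type II chains. They were chosen by the intensities of the same arrays, from the difference between the resistant and the parental cells, so their differences are given as a description, with no p-value, and a count of their calls is printed only beside the same count over all probe sets. Every probe set annotated to exactly 1 of these symbols was taken, which gave 14 of the 54613 probe sets tested and 8 of the 9 genes. No probe set was annotated to KRT17 alone, and this gene has no value here.

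The arrays compare COLO-320DM, an APC-mutated colorectal cancer cell line, with 320IWR, the subline obtained from it by long culture with the tankyrase inhibitor IWR-1, at 2 arrays for each line. 320IWR was grown from the treated culture and is not described as 1 clone, and the sources used here do not say whether its cells were with or without IWR-1 when RNA was taken. Nothing states that the arrays of a line came from separate cultures, so every SD, standard error and p-value covers only how these arrays of a line vary, and that variation may be technical. The number of arrays limits the precision. Values are RMA intensities on a linear scale, and the medians of the 4 arrays lay between 41.0 and 41.8. A difference is the mean log2 intensity of 320IWR minus that of COLO-320DM. Calls are from limma, with p-values adjusted by Benjamini-Hochberg over all probe sets, and require an adjusted p below 0.05 and at least a 2-fold difference.

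Colon epithelial markers and other epithelial genes ranged from bright to dim in both lines. Of 15 listed colon epithelial markers 12 had a probe set. The homeobox gene CDX2, one of them, was bright (3403 and 3263 in COLO-320DM, 2723 and 2790 in 320IWR). Among epithelial genes outside this marker list, MAL2 was bright (4815 and 3448 in COLO-320DM, 2490 and 2327 in 320IWR). In contrast, the epithelial cadherin gene CDH1 lay between 16.2 and 18.8 and EPCAM, an epithelial surface antigen, between 13.5 and 35.1, below every array median. Detection calls were not used here, so the distance of such values above background is unknown. The summed intensity of the colon markers, most of it from CDX2, was 3836 to 3944 in COLO-320DM and 3216 to 3346 in 320IWR. That of the neuroendocrine markers was 7866 to 9122 and 7893 to 8391, and that of the fibroblast markers 1079 to 2015 and 878 to 1788. That of the leukocyte markers was 440 to 465 and 477 to 518, and that of the endothelial markers 741 to 825 and 671 to 702. COL3A1 alone gave 292 and 1193 of the fibroblast sums in COLO-320DM and 278 and 1187 in 320IWR. Such sums follow their brightest genes and are no profile of a cell type. Markers with a probe set were also set against the array median. The mean lay above it for 7 of 12 colon, 5 of 12 neuroendocrine and 5 of 12 fibroblast markers. The same held for 4 of 10 leukocyte and 2 of 12 endothelial markers. The share over all genes was not counted, so no cell type is read from these counts. Limma called 0 markers in these lists, with 2 neuroendocrine and 2 fibroblast markers at an unadjusted p under 0.05 (all genes: 0.592% and 12.3%). Their part in the keratin differences was not tested.

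KRT8 and KRT18 were lower in 320IWR. KRT8 (probe set 209008_x_at) had intensities of 499.6 and 580.1 in COLO-320DM and of 113.2 and 111.9 in 320IWR. The 320IWR mean was 20.9% of the parental level by log2 values (540 ± 56.9 against 113 ± 0.923, SD, n = 2 each), a log2 difference of -2.26 with a standard error of 0.13. KRT18 (201596_x_at), which encodes its filament partner, had 1323 and 1128 in COLO-320DM, against 389.6 and 380.1 in 320IWR. Here 320IWR stood at 31.5% of the parental level (1226 ± 138 against 385 ± 6.71, SD, n = 2 each), a log2 difference of -1.67 with a standard error of 0.14. In neither gene did the arrays of the lines overlap, and both 320IWR values lay close together. In bulk RNA, fewer cells that express a gene and less of its RNA per cell cannot be told apart.

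KRT20 was higher in 320IWR. Its probe set 213953_at had intensities of 49.6 and 54.6 in COLO-320DM and of 199 and 160.1 in 320IWR. The lines did not overlap, and 320IWR was 3.43-fold higher (52.1 ± 3.55 against 180 ± 27.5, SD, n = 2 each), a log2 difference of 1.78 with a standard error of 0.16. Among the 3 members past a 2-fold difference, KRT20 was the one higher in 320IWR, although KRT18 and KRT20 are type I chains alike. The parental intensities of KRT20 lay little above the array medians.

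**Figure D1:**
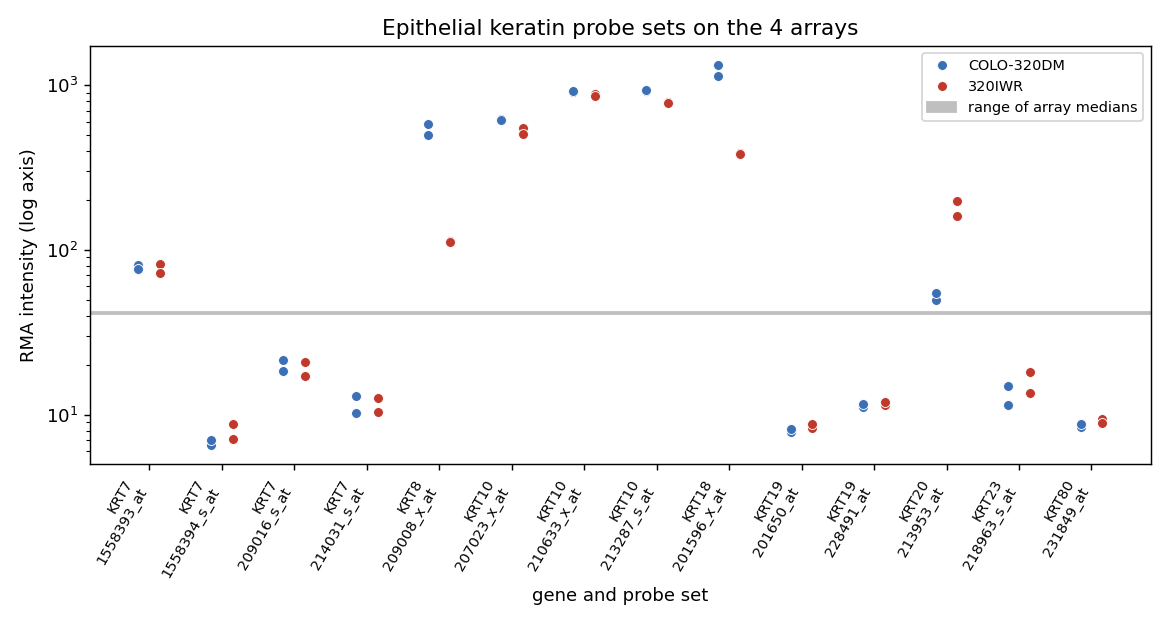
RMA intensity (log axis) of the 14 probe sets of the epithelial keratin genes, 1 point per array, blue for COLO-320DM and red for 320IWR, with the range of the array medians as a grey band. KRT8 and KRT18 lie lower and KRT20 higher in 320IWR, the 3 probe sets of KRT10 lie between 502 and 935, and those of KRT19, KRT23 and KRT80 lie under the band.

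KRT10, a type I keratin best known from the upper layers of the epidermis, differed little between the lines in 3 bright probe sets. Its brightest (210633_x_at) had 903 and 922 in COLO-320DM, against 885 and 857 in 320IWR, a log2 difference of -0.07 with a standard error of 0.12. The others, 213287_s_at and 207023_x_at, had log2 differences of -0.24 and -0.22, with standard errors of 0.11 and 0.12. The 320IWR arrays lay below the COLO-320DM arrays in each of the 3 probe sets, and the means of the lines differed by at most 1.18-fold. The probe set of KRT10-AS1, an antisense transcript of the KRT10 locus, was at 292 and 357 in COLO-320DM and at 395 and 423 in 320IWR (log2 difference 0.34, standard error 0.15, limma adjusted p = 0.605).

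The remaining members were dim. KRT19, the gut keratin that lacks most of the tail domain, had 11.1 and 11.6 in COLO-320DM and 11.4 and 11.9 in 320IWR in its brighter probe set (228491_at), and 7.87 to 8.84 over the 4 arrays in the other (201650_at). KRT23, a type I keratin, had 14.9 and 11.5 in COLO-320DM and 18.3 and 13.5 in 320IWR, with overlapping lines. KRT80, a type II keratin, had 8.43 and 8.82 in COLO-320DM and 9.41 and 8.90 in 320IWR. The log2 differences were 0.04 for KRT19, 0.27 for KRT23 and 0.09 for KRT80, with standard errors of 0.12, 0.22 and 0.12. All 4 arrays lay under their own array median for each of these probe sets.

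KRT7, a type II keratin of ducts and glands that is usually sparse in the colon, had 4 probe sets that differed in brightness. The brightest (1558393_at) had 81.4 and 76.3 in COLO-320DM and 81.6 and 72.9 in 320IWR, a log2 difference of -0.03 with a standard error of 0.13. The other 3 lay between 6.54 and 21.6 on every array, below the array medians, with log2 differences between -0.09 and 0.23. The lines overlapped in the brightest KRT7 probe set.

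Of the 14 probe sets, limma called that of KRT20 as higher and those of KRT8 and KRT18 as lower, and 11 were not called. Over all probe sets 0.37% were called. With a trended robust prior the call of KRT20 was lost and those of KRT8 and KRT18 were made. In 9 of the 14 the arrays of the lines did not overlap, which held for 35.6% of all probe sets. The members were chosen from this contrast, and nothing is read from these counts. By their brightest probe sets the 8 genes had a median log2 difference of 0.00, beside 0.02 for all 19775 genes, with 4 higher and 4 lower. The differences of KRT8, KRT18 and KRT20 ranged from -2.37 to -2.15, from -1.78 to -1.55 and from 1.62 to 1.94 when each array was left out in turn, yet no member was called in any of these fits. Once either 320IWR array was dropped, limma made 0 calls over the whole array, with 3756 and 3502 probe sets at an unadjusted p under 0.05.

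KRT8 and KRT18 were each read by 1 probe set whose name ends in _x_at, which marks probes that may also bind related transcripts, and both genes have many processed copies in the genome. The probe sets annotated to the pseudogene KRT8P12 did not show a difference of this size. One of them (222060_at) had 126 and 141 in COLO-320DM and 91.0 and 128 in 320IWR, with overlapping lines, a log2 difference of -0.30 and a limma adjusted p of 0.804. The other (230116_at) had 68.1 and 57.6 against 48.4 and 35.4, without overlap and lower in 320IWR, as KRT8 was. Its log2 difference was -0.60, with a limma adjusted p of 0.434. The probe set of KRT19P2 had a log2 difference of 0.20 and that of KRT17P5 one of 0.10, with limma adjusted p of 0.836 and 0.985. KRT20 was read by a probe set without such a suffix. No copy of KRT18 was among these probe sets, and binding of copies to the KRT8 and KRT18 probe sets was not tested.

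The 36 other keratin genes with a probe set showed no call. Their 42 probe sets had log2 differences of at most 0.31 in size. By brightest probe sets, 0 of 36 were called in limma and 0 reached an unadjusted p under 0.05. The shares among all genes were 0.592% and 12.3%. Their median log2 difference was 0.01, with 19 higher and 17 lower. The 18 other type I genes ranged from -0.31 to 0.20 and the 17 other type II genes from -0.14 to 0.26. The largest differences were -0.31 for KRT31 and -0.28 for KRT33A, type I hair keratins, and 0.26 for KRT84 and 0.22 for KRT2, type II keratins of hair and epidermis (limma adjusted p of at least 0.535). By brightest probe sets these genes were dim, between 5.74 and 72.6 over all arrays, and 31 of the 36 lay below the median probe set. Genes of stratified epithelium belong to this group: KRT5 and KRT14, the pair of the basal layer, had log2 differences of -0.14 and 0.02, and KRT1, the epidermal partner of KRT10, had -0.08.

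KRT8 and KRT18 are neighbours on chromosome 12, at the end of the type II cluster, in the gene order of GRCh38.p14. KRT18 is the type I gene that lies outside the type I cluster of chromosome 17. The keratin genes next to KRT8 on its other side, KRT78 and KRT79, had 37.0 and 29.4 as means in COLO-320DM and 40.5 and 27.9 in 320IWR, log2 differences of 0.13 and -0.07. The next gene beyond KRT18, EIF4B, encodes a translation initiation factor. It was at 4761 ± 162 in COLO-320DM and 4760 ± 212 in 320IWR (SD, n = 2 each), a log2 difference of 0.00 (standard error 0.12, limma adjusted p = 1). ATG101, an autophagy gene on the other side of the cluster, had a log2 difference of 0.07. KRT8 and KRT18 thus stand between dim keratin genes and a bright gene with nearly equal means.

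KRT20 lies in the type I cluster of chromosome 17, between KRT12 and KRT23 among the measured genes. KRT12, a keratin of the cornea, was at 6.14 and 6.34 as means of the lines, a log2 difference of 0.04, and KRT23 had the 0.27 given above. SMARCE1, a chromatin remodeling gene before the cluster, was at 1916 ± 182 and 1650 ± 134 (SD, n = 2 each; log2 difference -0.22, limma adjusted p = 0.793), and KRTAP3-3, a keratin-associated protein gene of hair within it, had -0.01. KRTAP17-1 and EIF1, a translation initiation factor gene, which frame KRT17 and KRT19, had 0.17 and -0.01. Of 30 other genes nearest the members, 0 were called in limma and 0 reached an unadjusted p under 0.05 (all genes: 0.592% and 12.3%). Their log2 differences lay between -0.30 and 0.22. Keratin genes were passed over in this count, so KRT7, KRT8, KRT18 and KRT80 share the same neighbours. Some neighbours were dim, such as KRTAP3-3, with means of 6.57 in COLO-320DM and 6.56 in 320IWR.

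**Figure D2:**
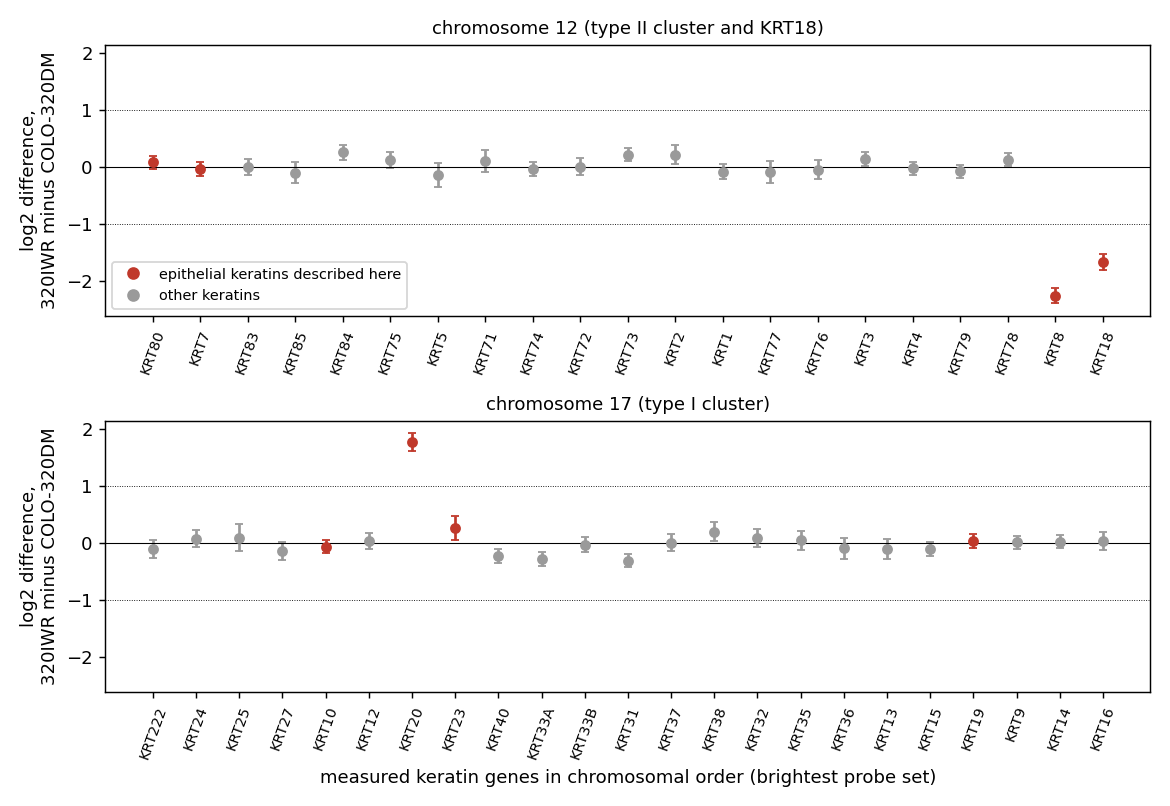
Log2 difference (320IWR minus COLO-320DM, with its standard error) of the measured keratin genes in their order on chromosomes 12 and 17, with the epithelial keratins described here in red and other keratins in grey. The dotted lines mark a 2-fold difference, and KRT8, KRT18 and KRT20 lie outside them while their keratin neighbours lie near 0.

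The 250 bases before the start site of KRT20 are shown with those of KRT10, since both are type I genes of the same cluster and only KRT20 differed by over 2-fold. Capitals mark a TATA box (TATAAA). The sequences are from RefSeq on GRCh38.p14, minus strand, written 5′ to 3′.
KRT20, chr17:40885243-40885492: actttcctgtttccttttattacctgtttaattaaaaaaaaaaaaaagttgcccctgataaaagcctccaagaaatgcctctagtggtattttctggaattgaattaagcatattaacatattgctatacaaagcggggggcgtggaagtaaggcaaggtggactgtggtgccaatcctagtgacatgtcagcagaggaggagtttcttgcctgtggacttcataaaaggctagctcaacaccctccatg
KRT10, chr17:40822615-40822864: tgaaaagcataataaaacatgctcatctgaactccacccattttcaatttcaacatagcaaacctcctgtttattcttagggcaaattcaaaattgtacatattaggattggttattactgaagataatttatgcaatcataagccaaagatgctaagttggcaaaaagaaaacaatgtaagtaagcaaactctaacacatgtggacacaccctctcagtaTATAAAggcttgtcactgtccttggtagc

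TATAAA was found in the KRT10 window, from 29 to 24 bases before the start site, and not in that of KRT20. At the same distance the KRT20 window reads CATAAA, which differs in its first base and was not searched for. The TCF/LEF core (CTTTGAA or CTTTGAT), the AP-1 site (TGANTCA) and the GC box (GGGCGG), searched like TATAAA on both strands, were in neither window. Of 35116 windows of this length, 10.7% held TATAAA, 5.94% the TCF/LEF core, 6.57% the AP-1 site and 42.6% the GC box. The motifs were chosen after the values had been seen, and a match or its absence describes these letters alone. RefSeq gave a window for 3 of the 9 genes. The third was that of KRT8, for which the table gives a start 23391 bases inside the annotated span of the gene, so it is not shown.

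Among 29 genes whose proteins bind or anchor keratin filaments, DSC2 rose and PERP fell, and both encode parts of the desmosome. DSC2, a desmosomal cadherin, had 39.9 and 41.2 in COLO-320DM and 446 and 363 in 320IWR in its brightest probe set (226817_at). This is a 9.91-fold rise (log2 difference 3.31, standard error 0.15, limma adjusted p = 0.00853). Of its other 3 probe sets, 204751_x_at rose as well (log2 difference 2.84), while 204750_s_at and 231033_at were not called, with log2 differences of 1.87 and 0.31. PERP, a membrane protein of desmosomes and a p53 target, had 632 and 639 in COLO-320DM and 68.2 and 78.2 in 320IWR in its brightest probe set (222392_x_at), an 8.70-fold fall (log2 difference -3.12, standard error 0.13, limma adjusted p = 0.00807). A second bright PERP probe set (217744_s_at) fell by 3.26 on the log2 scale, and 3 dim ones had -0.17, -0.07 and 0.033. As the mean of all probe sets of the gene, the log2 difference was 2.08 for DSC2 and -1.32 for PERP, with limma adjusted p of 0.00688 and 0.0197. DSC2 and PERP lost their calls without either 320IWR array, where the adjusted p was 0.129 and 0.141 for both genes.

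Most partners were not called. The plakin gene DSP, which encodes the link between desmosomes and keratin, was at 1452 and 1289 in COLO-320DM and 1559 and 1757 in 320IWR (log2 difference 0.27, limma adjusted p = 0.674). PLEC, a large linker of filaments, had a log2 difference of -0.01, JUP, which encodes plakoglobin, -0.01, and DSG2, a desmosomal cadherin, 0.05. DNAJB6, a chaperone that binds KRT18, had 191 and 232 in COLO-320DM and 367 and 366 in 320IWR, without overlap (log2 difference 0.80, limma adjusted p = 0.167). DSC1, a desmosomal cadherin of the epidermis, had a log2 difference of -1.14 (limma adjusted p = 0.147). The next largest among partners not called were -0.43 for PPL and -0.42 for DSG1, both without overlap (limma adjusted p of 0.347 and 0.348). In all, 2 of 29 partners were called in limma and 7 reached an unadjusted p under 0.05, beside 0.592% and 12.3% of all genes. The median log2 difference was 0.03. Among these 29 genes 17 were higher and 12 lower. The list was chosen with earlier results of these data known, which limits the p-values of DSC2 and PERP as well. Nothing is read from its counts.

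**Figure D3:**
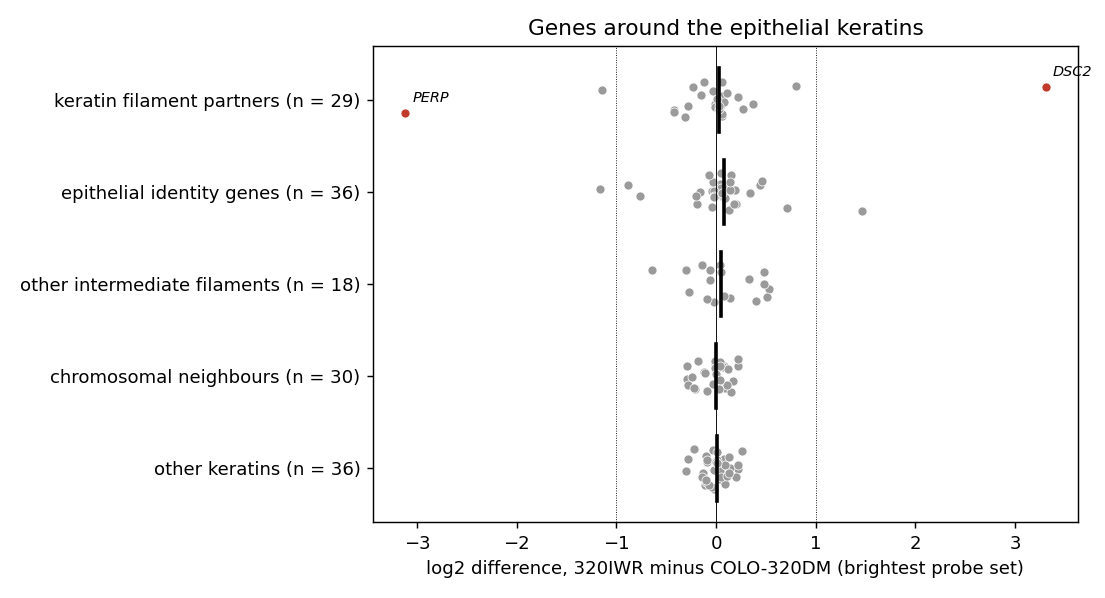
Log2 difference (320IWR minus COLO-320DM) of the brightest probe set of each gene in 5 lists, 1 point per gene, with a black bar at the median of each list and dotted lines at 2-fold. DSC2 and PERP, in red, are the called genes, and the largest median of a list is 0.08.

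Intermediate filament genes other than keratins were not called. VIM, which encodes vimentin, the filament protein of mesenchymal cells, was bright in both lines, at 7778 and 10104 in COLO-320DM and 5880 and 8737 in 320IWR, with overlapping values (log2 difference -0.31, limma adjusted p = 0.863). A dim second VIM probe set had 54.0 and 54.3 in COLO-320DM and 30.8 and 26.6 in 320IWR, without overlap (log2 difference -0.92, limma adjusted p = 0.109). NEFL, a neurofilament gene, had 1058 and 1972 in COLO-320DM and 1665 and 2560 in 320IWR, again with overlap in this brightest probe set (log2 difference 0.52). Its other 2 probe sets did not overlap, with log2 differences of 0.98 and 0.85 and limma adjusted p of 0.318 and 0.342. NES, the nestin gene of progenitor cells, had -0.64 and LMNB2, a nuclear lamin gene, 0.53, with limma adjusted p of 0.329 and 0.436. SYNM, which encodes synemin, had 0.48. Of 18 genes 0 were called in limma and 4 reached an unadjusted p under 0.05, beside 0.592% and 12.3% of all genes. The median log2 difference of the 18 was 0.05.

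Of 40 listed epithelial identity genes 36 had a probe set. Among these 36, limma called 0 and 5 reached an unadjusted p under 0.05 (all genes: 0.592% and 12.3%). Their median log2 difference was 0.08, with 23 higher and 13 lower. MARVELD2, a tight junction gene, had 38.7 and 42.4 in COLO-320DM and 86.4 and 144 in 320IWR (log2 difference 1.46, limma adjusted p = 0.167). TFAP2C, a transcription factor gene of ectoderm, had -1.16, with COLO-320DM arrays of 55.6 and 19.9 that differed more from each other than the lower one did from the 320IWR arrays. EPCAM had -0.88, with limma adjusted p of 0.356. MAL2, a gene of apical membrane traffic, was at 4815 and 3448 in COLO-320DM and 2490 and 2327 in 320IWR (log2 difference -0.76, limma adjusted p = 0.293). GRHL2, an activator of epithelial genes, was at 11.3 to 14.7 over the 4 arrays, and KLF5, a transcription factor of the crypt, had a log2 difference of 0.34 (limma adjusted p = 0.645).

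The genes whose 4 array-centered log2 values lay nearest to those of KRT8, the member with the largest difference, were ADGRL2, ANXA6, COL27A1, CHROMR and KLHL9. ADGRL2, an adhesion receptor gene, had the smallest Euclidean distance, 0.08 on the log2 scale over the 4 arrays, with 348 and 406 in COLO-320DM and 75.5 and 80.3 in 320IWR. The distances of ANXA6, a membrane-binding annexin gene, COL27A1, a collagen gene, CHROMR, a noncoding RNA, and KLHL9, a ubiquitin ligase adaptor gene, were 0.18, 0.22, 0.23 and 0.25. KRT18 was at a distance of 0.67 from KRT8 and KRT20 at 4.04. Such a distance rests on 4 arrays and ranks mainly the size of the difference between the lines.

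**Figure D4:**
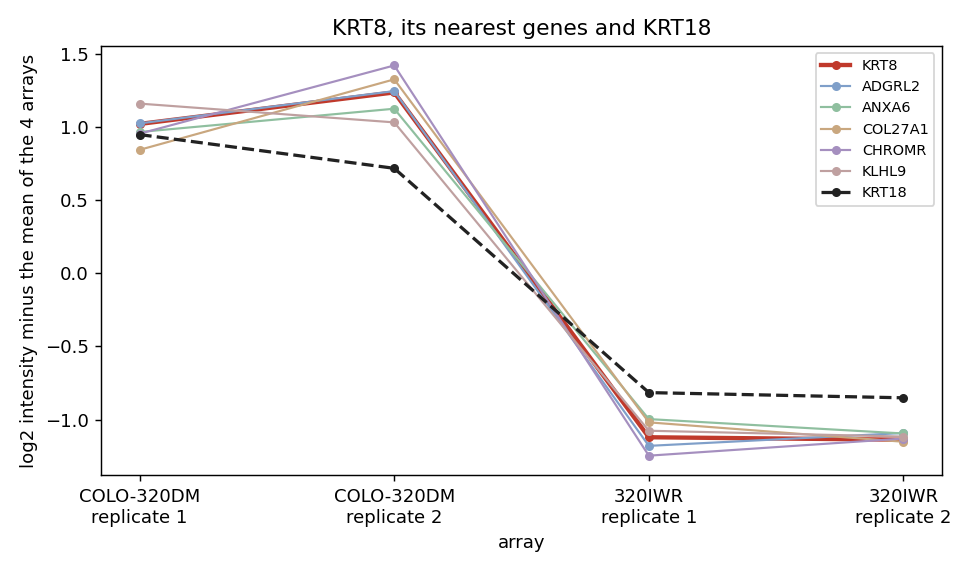
Log2 intensity minus the mean of the 4 arrays, by array, for KRT8 (thick red), the 5 genes nearest to it and KRT18 (dashed black), with lines that join the values of 1 gene. The 5 genes lie along KRT8, and KRT18 spans a smaller log2 difference, -1.67 against -2.26.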

How the data were processed

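Total RNA of both lines was hybridized to 4 Affymetrix U133 Plus 2.0 GeneChips. The deposited intensity values were made by the authors with RMA, per the labels, and the methods name GeneSpring GX; neither version is given in the sources used here. RMA forces equal distributions on the arrays, so a shift of all genes cannot be seen. Intensities run from 3.51 to 22475 and were taken to log2 with a floor of 1, which no value reached. With R 4.3.3 and limma 3.58.1 (lmFit, eBayes), 54613 probe sets were fitted with a single term for the line, after 62 controls had been left out, and p-values were adjusted over all of them. Standard errors are the moderated ones of limma.

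The supplied annotation gives 41091 probe sets 1 symbol, 1801 several and 11721 none. In lists a gene stands by its brightest probe set. Each called list gene and up to 4 others with the largest differences, all members and the nearest neighbours are named; KRT1, KRT5, KRT14, PLEC, JUP, DSG2, DSP, VIM, CDH1, CDX2, GRHL2, KLF5 and the pseudogene and antisense probe sets were named after their values were seen. Members and lists were chosen with earlier results of these data known. The procedure was tested on simulated data with independent arrays and with spreads shuffled across probe sets. The real arrays differ from this, since same-numbered arrays deviated together, so nothing is read from that test. Neighbours are the 5 measured protein-coding genes on each side, without keratins. Motifs in the promoter windows were chosen after the values were seen. As alternatives, a replicate block was added, single arrays were left out, and the fit was repeated with cyclic loess, equal array medians, the mean of all probe sets, no probe sets with the suffixes _x_at or _s_at, a filter on dim probe sets, a trended robust prior, no fold limit and a stricter adjusted p.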

Additional observations from a re-analysis of the deposited data

How the results depend on the processing

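The log2 differences of KRT8, KRT18 and KRT20 kept their sign and moved by less than the SD within the lines under cyclic loess, equal array medians and ratios of arithmetic means; with 2 arrays a line, a shift from leaving 1 out cannot exceed that SD, and is no sign of stability. With the suffixes _x_at and _s_at left out, KRT8, KRT10, KRT18 and KRT23 have no value, and PERP has 0.033 in place of -3.12 (adjusted p = 1), since its 2 bright probe sets carry these suffixes, so that 1 partner was called in place of 2. KRT10 went from -0.07 to -0.10 under cyclic loess and to -0.18 as the mean of its probe sets, both shifts of more than its SD. The mean takes in its other 2 probe sets, at -0.24 and -0.22. The cause of the shift under cyclic loess was not tested. Leaving out each array gave 0 called member probe sets in place of 3, 0 to 2 called partners, and 0 to 63 called probe sets in place of 202; the lone array left in a line is then assumed to vary like the others. With a trended robust prior 2 member probe sets were called, without KRT20. At an adjusted p under 0.01, 0 members and 43 probe sets were called. Same-numbered arrays deviated together (r = 0.661 across probe sets, which are not independent), but the labels tie the numbers to no shared batch and there are 2 pairs, so the pairing was not used. A replicate block raised the calls to 576 and left the numbers of calls among the members and in the 5 lists as they were. With this block, 2 other keratins and 1 neighbour reached an unadjusted p under 0.05 in limma, in place of 0 and 0. The same held for 8 partners in place of 7, 7 other intermediate filament genes in place of 4 and 7 epithelial identity genes in place of 5. Other keratins, other intermediate filaments, epithelial identity genes and neighbours had 0 calls under each alternative that kept all 4 arrays. This is no sign of stability, since these fits share the same 4 arrays. A stricter adjusted p, moreover, can only remove calls, while other alternatives could add them. The filter on dim probe sets kept 1 of 36 other keratins and 9 of 18 other intermediate filament genes. It kept 13 of 36 epithelial identity genes and 13 of 30 neighbours. The lack of detection calls limits what can be said of probe sets under the array median.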
